A study of Mus musculus with 23 samples.

Results

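The tachykinin and CART peptide genes of the mouse nucleus accumbens are described here through 5 members of 22180 measured genes. They are the precursor genes Tac1, Tac2 and Cartpt and the receptor genes Tacr1 and Tacr3. The members were taken by symbol, each by the probe set whose only gene symbol is the member and whose mean is highest, and each of the 5 had a single such probe set. No measured level entered the choice of a probe set within a gene.

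Tachykinins are short peptides cut from larger precursors and released by neurons together with classical transmitters. Tac1 encodes substance P and neurokinin A, Tac2 the mouse precursor of neurokinin B, and Cartpt the cocaine- and amphetamine-regulated transcript (CART) peptides. Substance P acts mainly through the receptor encoded by Tacr1 and neurokinin B mainly through that encoded by Tacr3, and both receptors couple to Gq proteins. In the striatum, substance P is a product of the direct pathway medium spiny neurons, which also make dynorphin from Pdyn, and its receptor is best known there on cholinergic interneurons. CART peptides are abundant in the nucleus accumbens, and psychostimulants were found to raise their transcript in rat striatum.

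The study asked how Nr1d1, the gene of the circadian repressor REV-ERBα, acts in this region on social reward and anxiety-related behaviour. Micropunched nucleus accumbens of C57BL/6J mice of about 15 weeks was profiled on whole-transcript arrays. An adeno-associated virus (AAV) had been injected into it about 5 weeks earlier. The virus carried a short hairpin RNA against Nr1d1 in 6 female and 6 male samples and a scrambled hairpin in 5 female and 6 male control samples. The series calls all 23 samples biological replicates, and every group, controls included, had received a virus. The serotype, the promoter of the hairpin, the cells it reached and whether a sample holds 1 animal were not given in the sources used here. Treatment text in the labels speaks of litters and a postpartum collection for every sample, males included, and was therefore not used to assign a reproductive state.

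Values are deposited log2 intensities of probe sets. The array medians were 6.11 to 6.17 in the 11 female arrays and 5.84 to 5.88 in the 12 male arrays, as if each sex had been normalized separately. Wherever a level differs between females and males, the sex and the normalization therefore cannot be told apart. Xist and 3 Y-linked genes matched the sex label of all 23 arrays. The list mean of 17 medium spiny neuron genes lay between 9.99 and 10.75 in every array, and that of 11 septal, hypothalamic and habenular genes between 5.87 and 6.22. Brightness also depends on the probes, so levels of different probe sets are not amounts of RNA, and these values alone do not establish the tissue. Cortical RNA varied between the arrays. Slc17a7, the vesicular glutamate transporter of cortical projection neurons, ran from 8.92 to 11.13 (median 10.46) in females. In males it ran from 4.64 to 10.34 (median 8.84), with 4 arrays at 6.17 or lower and 8 at 8.01 or higher.

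The targeted gene was not lower in the arrays labelled knockdown. Nr1d1 (probe set 17268884, chr11:98767932-98775377) had a mean level in females of 10.04 ± 0.07 (SD, n = 5) for controls and 9.99 ± 0.16 (SD, n = 6) for arrays labelled knockdown, with an exact permutation p of 0.576. In males it read 9.59 ± 0.20 (SD, n = 6) and 9.58 ± 0.13 (SD, n = 6), with an exact permutation p of 0.926. The position of this probe set against the target of the hairpin was not given in the sources used here. Groups are therefore called by their labels throughout.

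The sequences upstream of Tac1 and Cartpt are shown because these 2 genes moved together from array to array, as described further on. They are the 250 bases before the start that the RefSeq promoter table on GRCm38.p6 gives for each gene, read 5′ to 3′ on the gene's own strand, and distances are counted from that start. The Tac1 window is chr6:7554811-7555060 on the plus strand and the Cartpt window chr13:99900684-99900933 on the minus strand. The Cartpt and Tacr1 windows lie within the full annotated extent of their genes, so those starts are not the outermost ones. All 5 members were found in the promoter table. Capitals mark matches to the searched motifs.
Tac1: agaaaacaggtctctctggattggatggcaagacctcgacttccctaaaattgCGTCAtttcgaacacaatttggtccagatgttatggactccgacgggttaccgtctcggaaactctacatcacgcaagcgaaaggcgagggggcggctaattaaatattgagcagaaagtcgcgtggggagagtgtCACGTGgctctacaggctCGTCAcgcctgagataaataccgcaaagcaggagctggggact
Cartpt: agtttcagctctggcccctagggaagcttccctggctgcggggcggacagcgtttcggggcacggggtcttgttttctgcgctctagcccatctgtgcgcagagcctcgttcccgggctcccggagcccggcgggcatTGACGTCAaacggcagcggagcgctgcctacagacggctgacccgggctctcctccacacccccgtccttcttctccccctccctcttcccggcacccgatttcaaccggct

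The motifs searched on both strands were the cyclic AMP response element TGACGTCA, its core TGACG, the E-box CACGTG, and AGGTCA, the core bound by nuclear receptors of the REV-ERB kind. The Cartpt window held TGACGTCA at 112 to 105 bases upstream, a match that contains the core on either strand. That element occurred in 508 of 32851 mouse promoter windows of the same length, or 1.55%. The Tac1 window held no full element. It held the core on the opposite strand at 197 to 193 and at 43 to 39 bases upstream, and CACGTG at 61 to 56 bases upstream. The core occurred in 17.8% of all windows and CACGTG in 6.02%. Of the other members, the Tacr1 window held the core at 226 to 222 bases, the Tacr3 window held it at 58 to 54 bases, and the Tac2 window held none of these letters. AGGTCA, present in 14.0% of all windows, was in none of the 5. A match is a description of letters and not of a bound site.

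The Tac1 probe set was bright, with a mean at percentile 96.52 of all probe sets (probe set 17455954, gene at chr6:7555061-7562978). The 5 control females read 10.58, 10.70, 10.46, 10.56 and 10.52. The 6 females labelled knockdown ran from 10.34 to 10.63 with a median of 10.52, and the 2 female groups overlapped. Control males ran from 9.96 to 10.20 (median 10.11) and males labelled knockdown from 10.02 to 10.30 (median 10.24). In males 4 of the 6 arrays labelled knockdown lay above every control, while the other 2 lay inside the control range. Every female array lay above every male array, in the direction of the array medians.

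Cartpt ranked at percentile 90.55 (probe set 17295496, gene at chr13:99898483-99910179). The control females read 9.47, 9.67, 9.31, 9.47 and 9.26, and the females labelled knockdown ran from 8.99 to 9.60 with a median of 9.42. These 2 groups overlapped broadly, and the 2 lowest female values were in arrays labelled knockdown. Control males read 8.73, 8.55, 9.10, 8.88, 8.96 and 8.78. Males labelled knockdown read 9.15, 9.04, 9.06, 9.07, 9.23 and 8.90. All 6 of the latter lay above the control median of 8.83, and 2 lay above the highest control.

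The Tac2 probe set was dimmer, at percentile 78.41 (probe set 17238141, gene at chr10:127724478-127731768), and exceeded the upper quartile of its array in 18 of 23 arrays. Control females read 7.62, 7.76, 7.79, 8.02 and 7.83, and females labelled knockdown ran from 7.56 to 7.93 with a median of 7.77. Control males ran from 7.75 to 8.14 (median 7.985) and males labelled knockdown from 7.95 to 8.20 (median 8.015). The groups overlapped in both sexes. Male means exceeded female means for Tac2, against the direction of the array medians.

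Tacr1 encodes the substance P receptor and ranked at percentile 75.68 (probe set 17459843, gene at chr6:82402003-82560104). The control females lay close together at 7.52, 7.49, 7.52, 7.71 and 7.60, and the females labelled knockdown ran from 7.34 to 7.76 with a median of 7.645. Control males spread from 7.26 to 8.10 (median 7.835), wider than the males labelled knockdown at 7.61 to 7.91 (median 7.79), which lay wholly inside the control range.

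Tacr3 encodes the neurokinin B receptor and ranked at percentile 73.66 (probe set 17402787, gene at chr3:134829007-134934581). Control females read 7.53, 7.57, 7.18, 7.62 and 7.69, and females labelled knockdown read 7.38, 7.69, 6.82, 7.30, 7.43 and 7.49. Control males read 7.21, 6.84, 8.04, 7.84, 8.09 and 8.17, with 2 arrays far below the other 4. Males labelled knockdown read 7.66, 7.46, 6.96, 7.47, 7.68 and 8.01. The groups overlapped in both sexes, and each group held 1 or 2 arrays well below the rest.

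**Figure D1:**
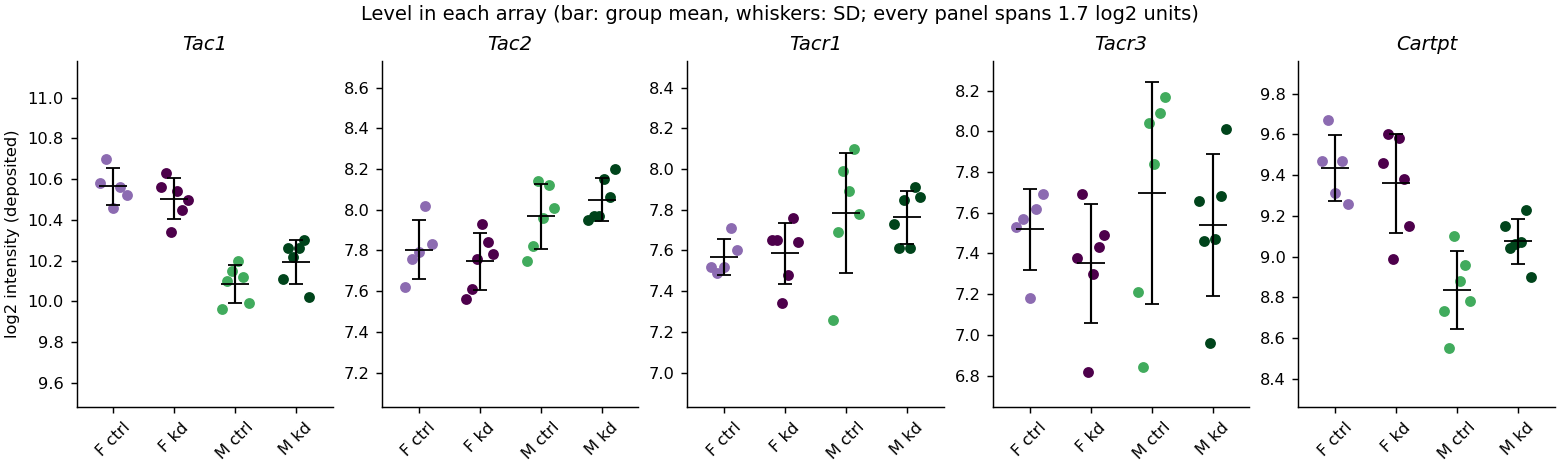
Deposited log2 intensity (y axis) of each member in every array, in control (ctrl) and labelled knockdown (kd) females (F) and males (M). Points are arrays, the bar is the group mean, whiskers are SD, and every panel spans the same range of log2 units, so that the wide spread of Tacr3 (6.84 to 8.17 in control males) can be set against the narrow spread of Tac1 (9.96 to 10.20).

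In order of group means, Tac1 and Cartpt ran from control females through females labelled knockdown and males labelled knockdown to control males. For Tac1 the means were 10.56 ± 0.09 (SD, n = 5), 10.50 ± 0.10, 10.20 ± 0.11 and 10.09 ± 0.09 (each SD, n = 6). For Cartpt they were 9.44 ± 0.16 (SD, n = 5), 9.36 ± 0.24, 9.08 ± 0.11 and 8.83 ± 0.19 (each SD, n = 6). Tac2 ran the other way, from 8.05 ± 0.11 in males labelled knockdown to 7.97 ± 0.16 in control males (each SD, n = 6), 7.80 ± 0.14 in control females (SD, n = 5) and 7.75 ± 0.14 in females labelled knockdown (SD, n = 6). Means of the same sex lay within 1 SD of each other for Tac2. For the receptors the order was control males, males labelled knockdown and then the females. Tacr1 stood at 7.79 ± 0.30, 7.76 ± 0.13, 7.59 ± 0.15 (each SD, n = 6) and, in control females, 7.57 ± 0.09 (SD, n = 5). Tacr3 stood at 7.70 ± 0.55 and 7.54 ± 0.35 in males (each SD, n = 6), at 7.52 ± 0.20 in the control females (SD, n = 5) and at 7.35 ± 0.29 in those labelled knockdown (SD, n = 6). The 2 groups of a sex lay within 1 SD of each other for both receptors, and for Tac1 and Cartpt in females. In males the Tac1 and Cartpt means lay more than 1 control SD apart.

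None of the 5 members passed the threshold of 0.05 on the adjusted p of limma, which was also the case for 0 of 41345 probe sets in each comparison. At an unadjusted p under 0.05, the females gave 0 of 5 members against 5.86% of all probe sets, and the males 1 of 5, Cartpt, against 4.71%. The average of both sexes gave 0 of 5 against 4.71%. The male minus female difference gave 1 of 5, again Cartpt, against 5.7%.

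In males Cartpt was higher by 0.24 on the log2 scale in the arrays labelled knockdown (SE 0.10, 95% interval 0.03 to 0.45), or 18.2% with an interval of 2.08% to 36.9%. The limma p was 0.0273 unadjusted and 0.996 adjusted over all probe sets, so the difference did not pass the adjustment. All 6 arrays lay above the control mean, and a two-sided exact permutation test over the 12 arrays gave p = 0.0281, where the smallest reachable p is 0.00216. Adjusted over the 10 exact tests of the members within a sex, this p was 0.281. Leaving out male control 2, the lowest control, brought the difference to 0.19 with an unadjusted p of 0.0835. The unadjusted p was also above 0.05 without male control 1 (0.0547), male knockdown 1 (0.0502) or male knockdown 5 (0.0632). Leaving out male controls 1 and 6 together gave a difference of 0.20 with an unadjusted limma p of 0.102. Both arrays lay below the control mean (8.73 and 8.78 against 8.83), so leaving them out had to lower the difference. In females the Cartpt difference was −0.08 (SE 0.11, 95% interval −0.30 to 0.15, limma adjusted p = 0.955), and 3 of 6 arrays lay below the control mean. The male difference exceeded the female difference by 0.32 (SE 0.15, 95% interval 0.01 to 0.62), with an unadjusted limma p of 0.0432 and an adjusted p of 0.872. That unadjusted p was above 0.05 in 13 of the 23 fits that left out 1 array, at most 0.0967 without female control 2. It was also above 0.05 with quantile normalization (0.0679), with the medium spiny neuron mean as a covariate (0.0664) and without male controls 1 and 6 (0.101). It was lower than 0.0432 with the cortical mean as a covariate (0.0161), a common median within sex (0.0269) and the replicate numbers as a block (0.0300).

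Markers of cell types moved with the male Cartpt comparison. Of the 17 medium spiny neuron genes, 16 were higher in males labelled knockdown and 1 lower, with 0 at an unadjusted limma p under 0.05, and the list mean was 10.21 ± 0.15 in controls against 10.30 ± 0.09 (each SD, n = 6). In bulk tissue, more cells of a type and more RNA per cell cannot be told apart. With that list mean as a covariate, the male Cartpt difference was 0.14 (SE 0.08, limma adjusted p = 0.9999). All 6 microglial genes were higher as well, with 2 at an unadjusted p under 0.05, beside 51.9% of all genes higher and 4.71% of probe sets at that p in males, and their list mean was 7.84 ± 0.07 in controls and 7.93 ± 0.02 in the males labelled knockdown (each SD, n = 6). The cortical list mean was 6.81 ± 1.07 and 7.17 ± 0.62 (each SD, n = 6), and with it as a covariate the Cartpt difference was 0.29 (SE 0.10, limma adjusted p = 0.972). The part of microglia in the Cartpt difference was not tested.

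Tac1 followed the same order of groups. In males it was higher by 0.11 (SE 0.06, 95% interval −0.01 to 0.23), with 5 of 6 arrays above the control mean, an unadjusted limma p of 0.0812 and an adjusted p of 0.996. The exact permutation p was 0.0931, or 0.466 adjusted over the 10 exact tests. In females it was −0.06 (SE 0.06, 95% interval −0.19 to 0.07, limma adjusted p = 0.935), with 5 of 6 arrays below the control mean. The male difference exceeded the female by 0.17 (SE 0.09, 95% interval −0.01 to 0.35, limma adjusted p = 0.872). Leaving out male controls 1 and 6 together, which earlier results of these data set apart, lowered the male Tac1 difference to 0.05. They held the lowest Tac1 levels of the male controls (9.96 and 9.99), so leaving them out had to lower it. The medium spiny neuron mean as a covariate gave 0.05 as well.

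The remaining members gave differences smaller than their spread. Tac2 stood at −0.06 in females (SE 0.08, 95% interval −0.23 to 0.11) and 0.08 in males (SE 0.08, 95% interval −0.08 to 0.25). Tacr1 stood at 0.02 in females (SE 0.11, 95% interval −0.21 to 0.24) and −0.02 in males (SE 0.10, 95% interval −0.24 to 0.19). Tacr3 was the member with the widest intervals, at −0.17 in females (SE 0.21, 95% interval −0.61 to 0.27) and −0.16 in males (SE 0.20, 95% interval −0.58 to 0.26). Its size moved with single arrays. The female value was −0.06 without female knockdown 3 and −0.25 without female control 3. The male value was −0.04 without male knockdown 3 and −0.33 without male control 2. Averaged over both sexes, Tacr3 was −0.16 (SE 0.15, limma adjusted p = 0.980), with 10 of 12 arrays labelled knockdown below the control mean of their sex. Cortical genes moved with the male difference, and with their mean as a covariate it was 0.01 (SE 0.10). The female value was −0.16 (SE 0.11) in the same fit. For these 3 genes the limma adjusted p was 0.949 or higher in each sex, and the exact permutation p was 0.31 or higher.

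**Figure D2:**
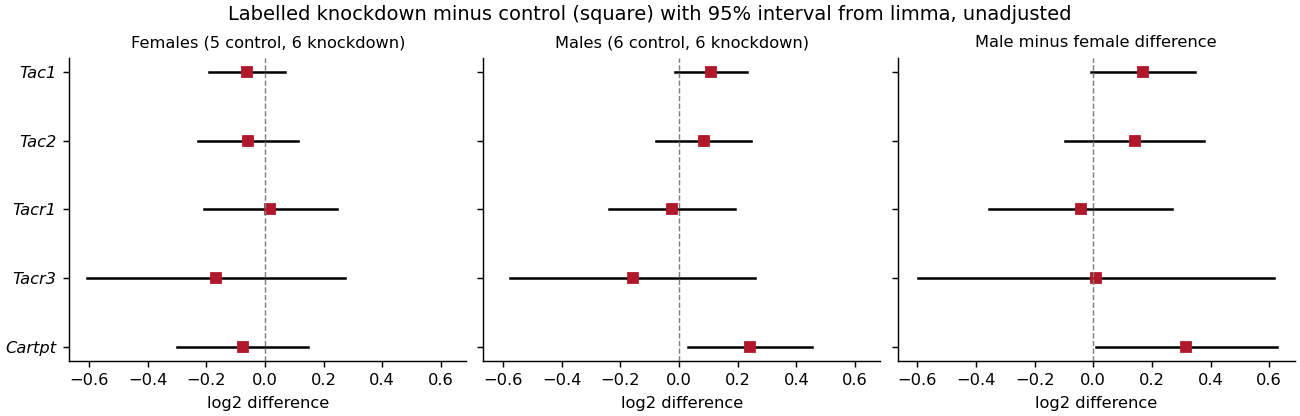
Difference in log2 intensity (x axis) between arrays labelled knockdown and controls for each member (y axis), in females, in males, and as the male minus female difference. Squares are limma estimates and lines their unadjusted 95% intervals. Cartpt in males and in the difference of the sexes has intervals clear of 0 before adjustment, around 0.24 and 0.32, and Tacr3 has the widest lines.

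The members differed in how far they spread between arrays of the same group. The SD within groups was 0.0982 for Tac1, 0.138 for Tac2, 0.188 for Tacr1, 0.375 for Tacr3 and 0.184 for Cartpt, against a median of 0.12 over all genes. Among the 1000 genes nearest in brightness, the SD of Tacr3 ranked at percentile 99.0 and that of Cartpt at 94.8. Tacr1 ranked at 92.8, Tac2 at 78.7 and Tac1 at 62.3. The Tacr3 SD was 0.457 in males and 0.255 in females.

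The deviations of each array from its group mean were compared between members over 10 pairs, since a difference between the full groups cannot enter them. The points share the array, so its RNA and the outline of its tissue punch are common to both values of a pair. The permutations of all correlations treated the arrays of a group as independent. Whether replicate numbers mark pairs or batches is not known, and if they do, these p-values may be too small. Tac1 and Cartpt moved together over the 23 arrays (r = 0.685, permutation p = 0.00077, adjusted over the 10 pairs 0.0077; rho = 0.696, permutation p = 0.00074, adjusted 0.0074). Without the 2 arrays farthest from the median of Tac1, r was 0.575. Within females r was 0.869 (n = 11) and within males 0.497 (n = 12). In the 8 males with Slc17a7 above 7 it was 0.315. These were male controls 1, 2 and 4 and males labelled knockdown 1 to 5. Here and below, r for these 8, and r without the 2 farthest arrays, kept deviations from the full group means. A difference between the groups can enter those values. With the other 4 males left out, r over females and males was 0.686 with an adjusted permutation p of 0.0524 over the pairs, an alternative chosen after seeing the data.

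The 2 receptors also moved together by rank (rho = 0.657, permutation p = 0.00343, adjusted 0.0171), while by r they stood at 0.592 with an adjusted permutation p of 0.0853. Within sexes r was 0.731 in females and 0.553 in males, and without male knockdown 3 the pooled r was 0.697 with an adjusted permutation p of 0.0351. Without the 2 arrays farthest from the median of Tacr1, r was 0.503. Cortical genes moved with this relation. After the linear part explained by the cortical list mean had been removed, r between Tacr1 and Tacr3 was 0.0207 and r between Tac1 and Cartpt 0.704. The removal used a single slope per gene over both sexes. With the cortical list, r was −0.722 in females and 0.0681 in males for Tac1, and −0.711 and −0.417 for Cartpt. The value of 0.704 therefore does not show the relation of Tac1 and Cartpt apart from cortical genes in females.

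The other 8 pairs missed the threshold. Tacr3 with Cartpt gave r = 0.492 (adjusted permutation p = 0.0853), and 0.615 (adjusted 0.0194) without male knockdown 6. Tac2 with Tacr1 gave r = 0.487 (adjusted permutation p = 0.0882). Tac2 with its receptor gene Tacr3 gave r = 0.456 (adjusted permutation p = 0.102), from −0.0907 in females to 0.778 in males, and the difference between the sexes was not tested. Tac1 with its receptor gene Tacr1 gave r = 0.328 (adjusted permutation p = 0.216), and Tac1 with Tac2 gave r = −0.0728 (adjusted permutation p = 0.753).

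**Figure D3:**
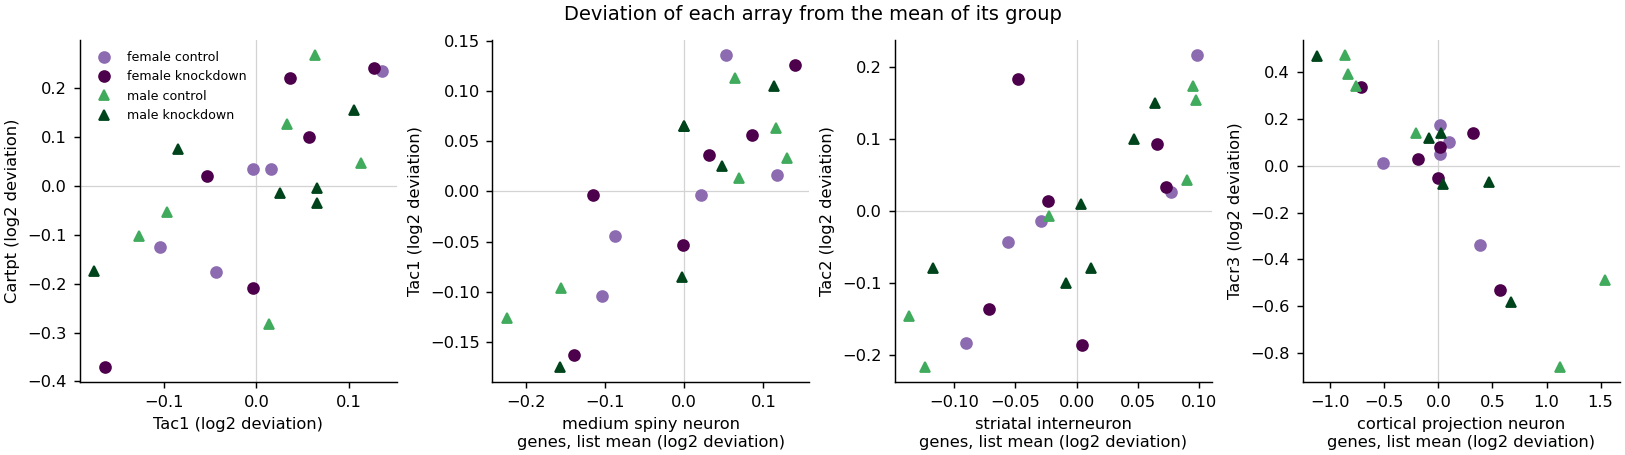
Deviation of each array from its group mean on the log2 scale, for Cartpt against Tac1, Tac1 against the mean of 17 medium spiny neuron genes, Tac2 against 12 striatal interneuron genes, and Tacr3 against 8 cortical projection neuron genes. Circles are females and triangles males, light for control and dark for labelled knockdown. The first 3 panels rise (r of 0.685, 0.818 and 0.736) and the last falls (r of −0.880).

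The members were then set against the mean levels of 10 marker lists, which gave 50 relations, and 13 of these passed an adjusted permutation p of 0.05 by r. Tac1 followed the medium spiny neuron genes most closely. With the list mean of 17 genes r was 0.818 (rho = 0.764), with a permutation p of 1e-05, the smallest these permutations can give, and 0.0005 adjusted over the 50. It was 0.762 without the 2 farthest arrays, 0.798 within females and 0.834 within males. Every gene of the list had a positive r with Tac1, from 0.471 for Isl1 to 0.80 for Bcl11b, a transcription factor of these neurons.

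Cartpt followed the same list at r = 0.689 (rho = 0.712, adjusted permutation p = 0.00971), with 0.868 in females and 0.549 in males. All 17 genes again had a positive r, from 0.396 for Bcl11b to 0.833 for Pdyn. This was not particular to Tac1 and Cartpt. All 17 also had a positive r with Tacr1, from 0.132 for Chrm4 to 0.702 for Gnal. With their mean Tacr1 gave r = 0.547 (adjusted permutation p = 0.0761), at 0.291 in females and 0.667 in males. The share of all genes with a positive r was not computed. With the 6 direct pathway genes, which the longer list includes in part, r was 0.795 for Tac1 (adjusted permutation p = 0.001) and 0.782 for Cartpt (adjusted 0.001). With the 5 indirect pathway genes it was 0.682 for Tac1 (adjusted permutation p = 0.00617) and 0.623 for Cartpt (adjusted 0.0214). Whether either gene followed the direct pathway more closely than the indirect was not tested. The direct pathway list was uneven. All 6 of its genes had a positive r with Tac1, from 0.0118 for Eya1 to 0.752 for Drd1, the dopamine receptor of these neurons, and 5 of 6 with Cartpt, from −0.247 for Eya1 to 0.833 for Pdyn. The 5 indirect pathway genes were all positive with both, from 0.305 to 0.677 for Tac1 and from 0.447 to 0.673 for Cartpt.

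Cartpt had further companions outside neurons. With 6 endothelial genes r was 0.693 (rho = 0.738, adjusted permutation p = 0.0111), at 0.681 in females and 0.718 in males, and with 6 microglial genes 0.600 (rho = 0.675, adjusted permutation p = 0.0431), at 0.757 and 0.451. All 6 genes of either list had a positive r with Cartpt. That count was not particular to these lists. All 6 astrocyte genes had a positive r too, from 0.141 to 0.394, while their mean missed the threshold (r = 0.374, adjusted permutation p = 0.231). For Tac1 the endothelial relation was 0.501 by r (adjusted permutation p = 0.0761) and 0.564 by rho (adjusted 0.0355).

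Tac2 showed another pattern. With the medium spiny neuron genes its r was −0.0335 (adjusted permutation p = 0.912), and 7 of the 17 had a positive and 10 a negative r. Tac2 rose and fell with the mean of 12 striatal interneuron genes (r = 0.736, rho = 0.730, adjusted permutation p = 0.0049), at 0.565 in females, 0.877 in males and 0.662 without the 2 farthest arrays. Of the 12 genes, 10 had a positive and 2 a negative r with Tac2, with a median of 0.236. They ran from −0.192 for Crhbp to 0.61 for Chat, the acetylcholine-synthesising enzyme of cholinergic interneurons. With the cortical list the sign differed by sex, 0.523 in females and −0.823 in males, and this difference was not tested.

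Both receptors followed the interneuron mean, Tacr1 at r = 0.662 (rho = 0.679, adjusted permutation p = 0.0111) and Tacr3 at r = 0.605 (rho = 0.616, adjusted permutation p = 0.0431). Without the 2 farthest arrays Tacr1 stood at 0.592 and Tacr3 at 0.415. Within females r was 0.597 for Tacr1 but only 0.216 for Tacr3, and within males 0.698 and 0.768. The difference between the sexes was not tested. The list did not move as a whole with Tacr3. The cholinergic genes Slc5a7 (the choline transporter, r = 0.921), Chat (0.891) and Slc18a3 (the vesicular acetylcholine transporter, 0.879) had a positive r, as had Lhx6 (0.904), a transcription factor of GABAergic interneurons, Kit (0.779), Th (0.399) and Pvalb (0.271). Crhbp (−0.78), Npy (−0.608), Sst (−0.413), Calb2 (−0.366) and Nos1 (−0.335) had a negative r, so that 7 genes had a positive and 5 a negative r. For Tacr1, 9 had a positive and 3 a negative r, from −0.453 for Crhbp to 0.764 for Slc18a3. These single genes were chosen after their values were seen, and their r values are given without a test.

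The strongest relation of Tacr3 was with the cortical projection neuron genes, and it was negative. Against the mean of 8 genes r was −0.880 (rho = −0.823, adjusted permutation p = 0.0005) and −0.881 without the 2 farthest arrays. It was −0.926 within males, −0.849 within the 8 males with Slc17a7 above 7, and −0.694 within females, where rho was only −0.30. Of the 8 genes, 7 had a negative r, down to −0.869 for Tbr1, a transcription factor of deep-layer cortical neurons. Tacr1 gave r = −0.664 with the same list (adjusted permutation p = 0.0322, by rho 0.0841). A higher cortical list mean thus tended to go with a lower Tacr3 level, by rank clearly in males (rho = −0.958) and weakly in females.

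**Figure D4:**
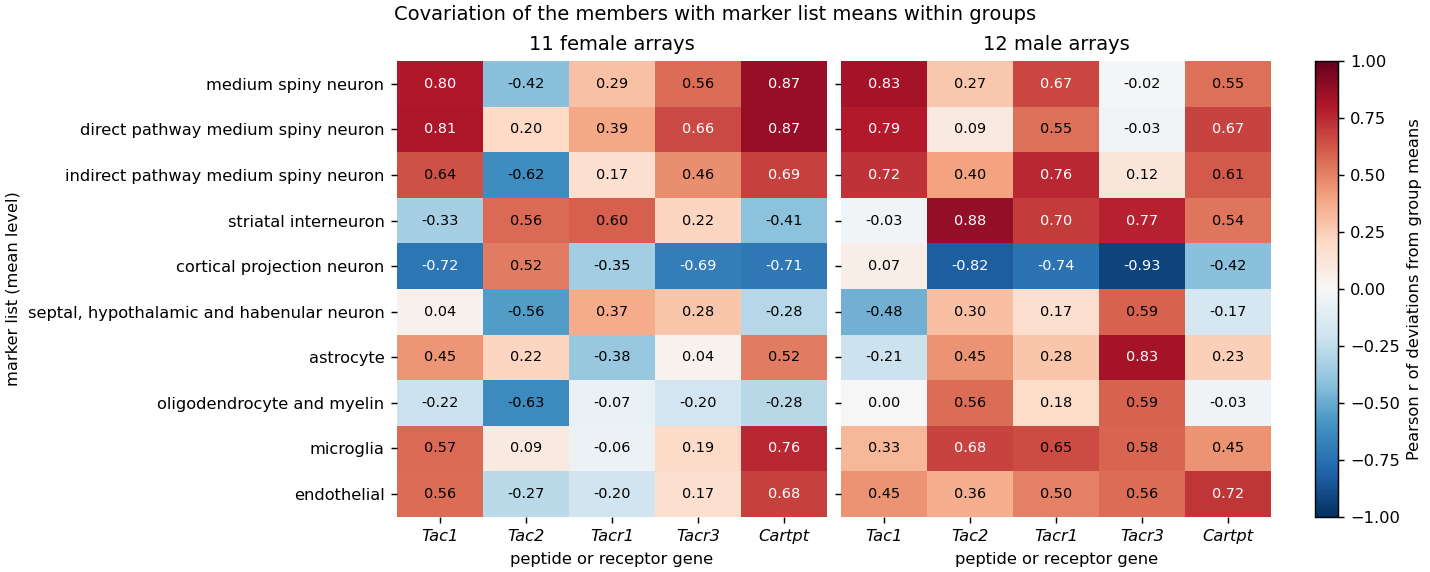
Pearson r between each member (x axis) and the mean level of each marker list (y axis), from deviations of arrays from their group means, in 11 female arrays and 12 male arrays; colour runs from −1 (blue) to 1 (red). Tac1 and Cartpt are red with the medium spiny neuron lists in both sexes (0.798 and 0.868 in females), and Tacr3 is blue with the cortical list (−0.694 and −0.926).

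Among 12971 genes brighter than the median probe set, those whose deviations were most like each member were found by r over the 23 arrays. Cartpt had Pdyn, the dynorphin precursor, as its nearest gene (r = 0.833, with 0.923 in females and 0.75 in males), followed by Prelp (0.809) and 1700110C19Rik (0.807). Tac1 had Akap9, an anchoring protein of protein kinase A (0.812), then Ctdspl (0.807) and Gucy1a1, a subunit of soluble guanylate cyclase (0.805). Tac2 had Rnf25 (0.826), Ap3d1 (0.761) and Prkaca, the catalytic subunit of protein kinase A (0.755). Tacr1 had Adam12 (0.906), Myo16 (0.869) and Slc10a4, a vesicular transporter of cholinergic and monoaminergic neurons (0.862). Tacr3 had the highest values, with A730046J19Rik (0.947), 1110015O18Rik (0.941) and Ecel1 (0.937). No other member was among the 3 nearest genes of any member. These values were selected as the highest of many and are descriptions.

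The rest of the tachykinin family had probe sets of low brightness, which is no measure of their RNA against that of the members. Tac4, the gene of hemokinin, lay between 5.61 and 5.84 in females and 5.41 and 5.92 in males, and Tacr2, the neurokinin A receptor, between 5.52 and 5.93 and between 5.19 and 5.79. Both ranked below the median brightness of all probe sets, at percentiles 44.6 and 43.0. In males labelled knockdown they differed from controls by 0.07 (SE 0.07) and 0.03 (SE 0.08), and in females by 0.04 (SE 0.07) and −0.02 (SE 0.09), with 0 of the 2 past the threshold in either sex.

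None of the pathway genes passed the adjusted limma threshold in either sex. Of 9 enzymes and granule proteins that process or store neuropeptides, 1 was higher and 8 lower in females labelled knockdown, with a median difference of −0.03, and 5 were higher and 4 lower in males, with a median of 0.01. The median over all genes was 0.00 in both sexes, and 50.1% of all genes were higher in females and 51.9% in males. At an unadjusted limma p under 0.05 stood 2 of the 9 in females, both lower, and 0 in males. Of all probe sets, 5.86% and 4.71% stood at that p. The pair with the smallest p in females were Scg5, a chaperone of a prohormone convertase, at −0.13 (SE 0.05, limma adjusted p = 0.839), and Chgb, a protein of secretory granules, at −0.20 (SE 0.10, limma adjusted p = 0.852). In males they were Vgf, a granule protein and peptide precursor, at 0.12 (SE 0.07), and Scg2, a granin, at 0.09 (SE 0.06). Of 5 peptidases that degrade tachykinins, 0 were higher and 5 lower in females, against 3 higher and 2 lower in males, with 0 at an unadjusted p under 0.05 in either sex.

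Of 13 genes of Gq signalling downstream of the receptors, 4 were higher and 9 lower in females, and 11 higher and 2 lower in males, with medians of −0.03 and 0.02. At an unadjusted p under 0.05 stood Arrb2, an arrestin that ends receptor signalling, and Gnaq, the Gq alpha subunit, both at −0.10 (SE 0.04 and 0.05) in females, and 0 genes in males. Of all genes, 50.1% were higher in females and 51.9% in males, and 5.86% and 4.71% of probe sets stood at that p. Of 12 other neuropeptide genes of the region, 4 were higher and 8 lower in females and 7 higher and 5 lower in males. Nts, the neurotensin precursor, was at −0.28 (SE 0.16) in females, and Npy at 0.12 (SE 0.09) in males. Of 10 genes of CREB and neuronal activity, 8 were higher and 2 lower in females, with a median of 0.06, and 6 higher and 4 lower in males, with a median of 0.03. The differences of these lists between the sexes had 0 genes past the adjusted limma threshold.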

How the data were processed

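The deposited table holds log2 intensities of 41345 probe sets on 23 arrays. Transcriptome Analysis Console was the authors' tool, per the submitters' processing notes. Its version, the summarisation, the normalization and the build were not given in the sources used here. Symbols came from the array's annotation table (23521 probe sets with 1 symbol, 1814 with several, 16010 with none), and coordinates, promoters and strands from RefSeq on GRCm38.p6.

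All arrays entered 1 limma model (limma 3.58.1, R 4.3.3) with a mean per group, 19 residual degrees of freedom and Benjamini-Hochberg adjustment over all probe sets. Permutation tests were two-sided, exact within a sex and with 100000 permutations for correlations (scipy 1.17.1), which used deviations from group means. The scripts were tested on simulated data. Limma p-values set a difference against the spread between samples, and permutation p-values set a value against those of rearranged arrays. Whether a sample holds 1 animal was not given, and the number of arrays limits precision.

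The 5 members and all lists were chosen with earlier results of these data known. List genes were named only as the 2 with the smallest unadjusted p per list and comparison, and nearest genes as the 3 highest r. Genes named beside these, the extremes of a list by r among them, were chosen after their values were seen. Replicate numbers were not used as pairs. Some genes of the lists were not analysed here.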

Additional observations from a re-analysis of the deposited data

How the results depend on the processing

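Over 10 other settings and 23 fits that each left out 1 array, none of 650 differences of the members passed the adjusted threshold, and the lowest adjusted p was 0.747. Cartpt in males lay between 0.19 and 0.30 and Tac1 in males between 0.08 and 0.14 when each array was left out. Quantile normalization gave 0.004029 for Tacr1 averaged over the sexes and −0.004058 for the male minus female difference of Tacr3. A common median gave −0.006667 for Tacr1 in females. Array weights gave −0.007267 for Tac2 and 0.00419 for Tacr1 on average, −0.01433 for the difference of Tacr3, and 1 called probe set in the difference of the sexes. With the cortical mean as a covariate, Tacr1 was 0.04129 in males, 0.03196 on average and 0.01867 in the difference, and Tacr3 0.01303 in males, from −0.16 without it. With the medium spiny neuron mean, Tac1 was −0.009839 on average and the difference of Tacr3 −0.03399. Without male controls 1 and 6 together, Tac1 and Tac2 were −0.004083 and −0.008667 on average, with 1 called probe set in males and 1 in the difference. The probe sets called under such alternatives carry no gene name here.

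Leaving out each array gave Tacr1 −0.016 to 0.068 in females, −0.1283 to 0.03967 in males, −0.05483 to 0.02917 on average and −0.147 to 0.021 in the difference. It gave Tac2 −0.01 to 0.04 on average, Tacr3 −0.25 to −0.06 in females, −0.33 to −0.04 in males and −0.1637 to 0.124 in the difference, and 0 to 1 called probe sets in females, in males and in the difference. Pair correlations ran from −0.231 to 0.0581 for Tac1 with Tac2, from 0.537 to 0.697 for Tacr1 with Tacr3, from 0.357 to 0.615 for Tacr3 with Cartpt and from 0.605 to 0.757 for Tac1 with Cartpt. Tac1 with Tac2 gave 0.0191 with a common median and 0.00526 without the 4 males of low Slc17a7, where Tac2 with Cartpt gave −0.0261 and Tac1 with Cartpt 0.686 (adjusted permutation p = 0.0524). Tac2 with Cartpt gave −0.0517 after the cortical part was removed. The cause of these changes was not tested.

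Arrays of the same replicate number did not deviate together over all probe sets (correlations of −0.0959 to 0.135, and 1 of 11 matched best with its own number). This cannot settle whether the numbers pair the samples, since a pairing may touch few genes. For Tac1 and Tac2, female replicates 1 to 5 stood in the same order in both groups, an order noticed after the values were seen. With the replicate block, Cartpt was 0.24 in males and −0.03 in females and Tac1 0.11 in males, and 0 probe sets were called. The unadjusted limma p of Cartpt was 0.00759 in males (adjusted 0.995) and 0.0300 in the difference of the sexes (adjusted 0.812). The unadjusted p of Tac1 was then 0.0225 in males and 0.0179 in the difference of the sexes, so that 2 of 5 members, in place of 1, stood under 0.05 in both comparisons. The share of all probe sets under 0.05 in this fit is not given here, so the count cannot be set against it. The mean over several probe sets was not run, since each member has 1.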
